A study of Homo sapiens with 5 samples.

Results

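The 7SL and 7SK RNAs were followed here through their 4 genes, RN7SL1, RN7SL2, RN7SL3 and RN7SK, out of 4202 genes in the authors' table of total RNA sequencing. The members are the entries with these 4 symbols, and all 4 were measured in every library. They were chosen by their high levels and share of the summed levels in these 5 libraries, so the values below describe them and none is a test. MDA-MB-231 cells, an established triple-negative breast cancer line, were treated for 4 h with the BTK inhibitor CGI-1746, with LU-102, with CGI-1746 plus LU-102, or with bortezomib, and a mock culture served as the control. LU-102 is known as an inhibitor of the trypsin-like site of the proteasome, and bortezomib, a proteasome inhibitor used as a drug, was the control for proteasome inhibition. No doses are given in the sources used here. There was 1 library per condition, so no value has a replicate error, no difference between conditions was tested, and every interval below covers counting error only. Of 8 marker genes of the line, from CD44 to VIM, all 8 were measured, at levels of 4.91 to 92.1 in mock.

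7SL is the RNA of the signal recognition particle, which binds ribosomes that are making secreted or membrane proteins and brings them to the endoplasmic reticulum. Its joined ends form the Alu domain, bound by SRP9 and SRP14, and its middle forms the S domain, bound by SRP19, SRP54, SRP68 and SRP72. 7SK is a nuclear RNA that, with LARP7, MEPCE and HEXIM proteins, holds the transcription elongation factor P-TEFb (CDK9 with a cyclin T) inactive. Both RNAs are made by RNA polymerase III, as are RMRP and RPPH1, the RNAs of RNase MRP and RNase P.

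7SK, which spans chr6:52995621-52995948, is shown for its first hairpin and the bases next to it. The sequence and coordinates are those of GENCODE 29 on GRCh38, printed 5′ to 3′ as DNA letters. Capitals mark the letters GATC wherever they occur, from positions 12, 41 and 63. A facing pair of GATC in the first hairpin belongs to the site that HEXIM1 is known to bind. Not every marked stretch is therefore part of that site.
RN7SK, bases 1 to 120, chr6:52995621-52995740, plus strand: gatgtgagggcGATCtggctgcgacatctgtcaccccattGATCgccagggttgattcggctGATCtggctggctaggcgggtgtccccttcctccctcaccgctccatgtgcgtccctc

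Each of the 4 genes has a single exon. The 3 7SL genes are on chromosome 14, RN7SL1 on the plus strand and RN7SL2 and RN7SL3 on the minus strand. RN7SL1 lies inside the span of RPS29, a ribosomal protein gene on the other strand, and overlaps none of its exons. GENCODE also places AL139099.4 over RN7SL1, and RF00100 over RN7SK, each on the same strand and over the whole gene, so reads of these pairs cannot be told apart by position. RN7SL2 lies in the same way inside the noncoding gene AL627171.2 on its own strand. RN7SL3 and RN7SL2 are 8635 bp apart on the same strand, and RN7SL1 is 266737 bp from RN7SL3. Of the RNAs, the 7SL copies are 62.2% to 62.9% G and C, and RN7SK is 58.2%.

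The reading of the 7SL levels turns on how alike the copies are. RN7SL1 and RN7SL2 differ at 4 of 299 aligned bases, an identity of 98.7%, and positions 70 to 274, counted from 1 at the 5′ end, are the same in both. Of the 150 windows of 150 bases, the length of a read, 56 are identical in RN7SL1 and RN7SL2 (37.3%). RN7SL3 differs from RN7SL1 at 7 positions (97.7% identity) and from RN7SL2 at 11 (96.3%), and shares no 150-base window with either. The longest stretch common to all 3 copies runs from position 119 to 241, and all 11 variable positions lie on either side of it, toward the joined ends. GATC, searched as these letters, which read the same on both strands, occurs 3 times in RN7SK, from positions 12, 41 and 63. It occurs 4 times each in RN7SL1 and RN7SL2 and 3 times in RN7SL3. Of 4120 annotated transcripts of 300 to 350 bases, 65.5% hold it at least once and 10% at least 3 times.

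**Figure D1:**
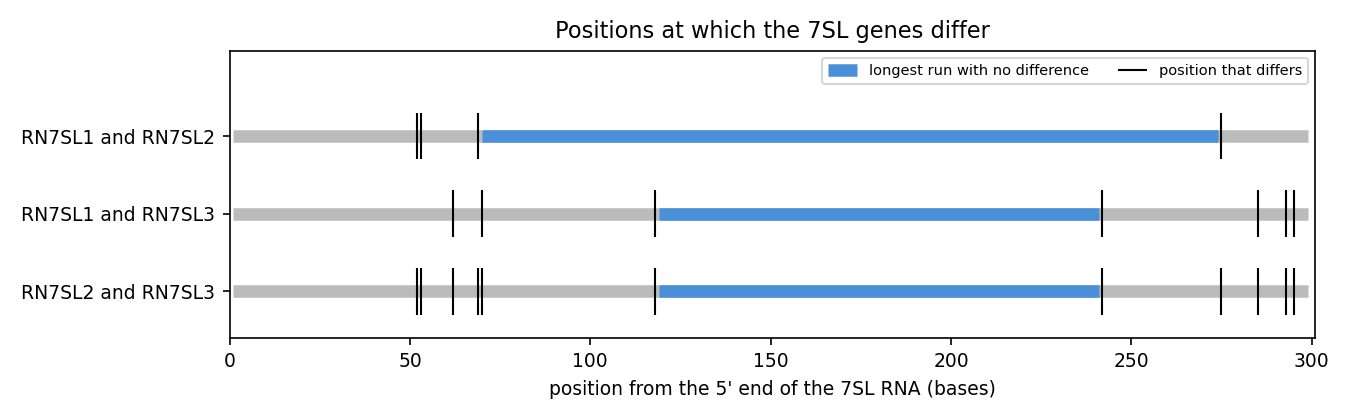
Positions at which each pair of 7SL genes differs (black ticks), along the RNA in bases from the 5′ end, with the longest run free of differences in blue. RN7SL1 and RN7SL2 differ at 4 positions, RN7SL1 and RN7SL3 at 7 and RN7SL2 and RN7SL3 at 11, with no difference between positions 119 and 241 in any pair.

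The deposited level is a normalized signal per gene and library. For 31 of 34 small nucleolar RNA genes, the product of level and gene length came in multiples of 0.5 times a fixed value per library, and this value was taken as the worth of 1 read for the short RNAs. With the RefSeq length of 332 bp RN7SK came out at 30339 reads with CGI-1746, 37289 under LU-102, 37849 under the combination and 50591 with bortezomib, against 29969 in mock. Each of these lay within 2.3e-05 of a whole number. The 7SL genes did not come out whole: RN7SL1 had 90535.25 reads with CGI-1746, 136694.97 under LU-102, 122202.43 under the combination and 189414.62 with bortezomib, against 90810.95 in mock. No length from 250 to 350 bp brought RN7SL1, RN7SL2 or RN7SL3 within 0.09 of whole reads in all 5 libraries. At their RefSeq lengths RMRP, at 37913.8 reads in mock, and RNU4-1, at 240.34, did not come out whole either. Other lengths were not tried for RMRP and RNU4-1, so whether their reads were divided was not tested. How the authors counted reads that match several copies or genes is not given in the sources used here, so the split among the near-identical 7SL copies is uncertain and the sum of the 3 is given beside them. The 3 copies together had 179087.69 reads with CGI-1746, 271865.31 under LU-102, 249241.46 under the combination and 393666.33 with bortezomib, against 174924.86 in mock. This sum did not come out whole in any library, so it is uncertain as well. Its ratios and counting intervals below share this limit. Whether reads were also divided with entries other than these 3 genes was not tested.

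RN7SL1 had a level of 17813 with CGI-1746, 26765 under LU-102, 24051 under the combination and 34062 with bortezomib, against 18035 in mock. RN7SL2 had 17302 with CGI-1746, 26281 under LU-102, 24837 under the combination and 36441 with bortezomib, against 16597 in mock. These are the most abundant genes of the table in all 5 libraries, RN7SL1 ahead of RN7SL2 with CGI-1746, with LU-102 and in mock, and behind it with the combination and with bortezomib. RN7SL3 was far lower, at 121 with CGI-1746, 186 under LU-102, 166 under the combination and 289 with bortezomib, against 109 in mock. RN7SK had 5376 with CGI-1746, 6575 under LU-102, 6709 under the combination and 8193 with bortezomib, against 5360 in mock. It stood at rank 5 in the table behind the other RNAs RMRP and RPPH1, and at rank 4 with bortezomib behind RNA45SN3, a gene of 45S ribosomal RNA with a level of 13832 there. Bortezomib was the highest library for each of the 4 genes and mock the lowest, except for RN7SL1, which was slightly lower with CGI-1746.

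**Figure D2:**
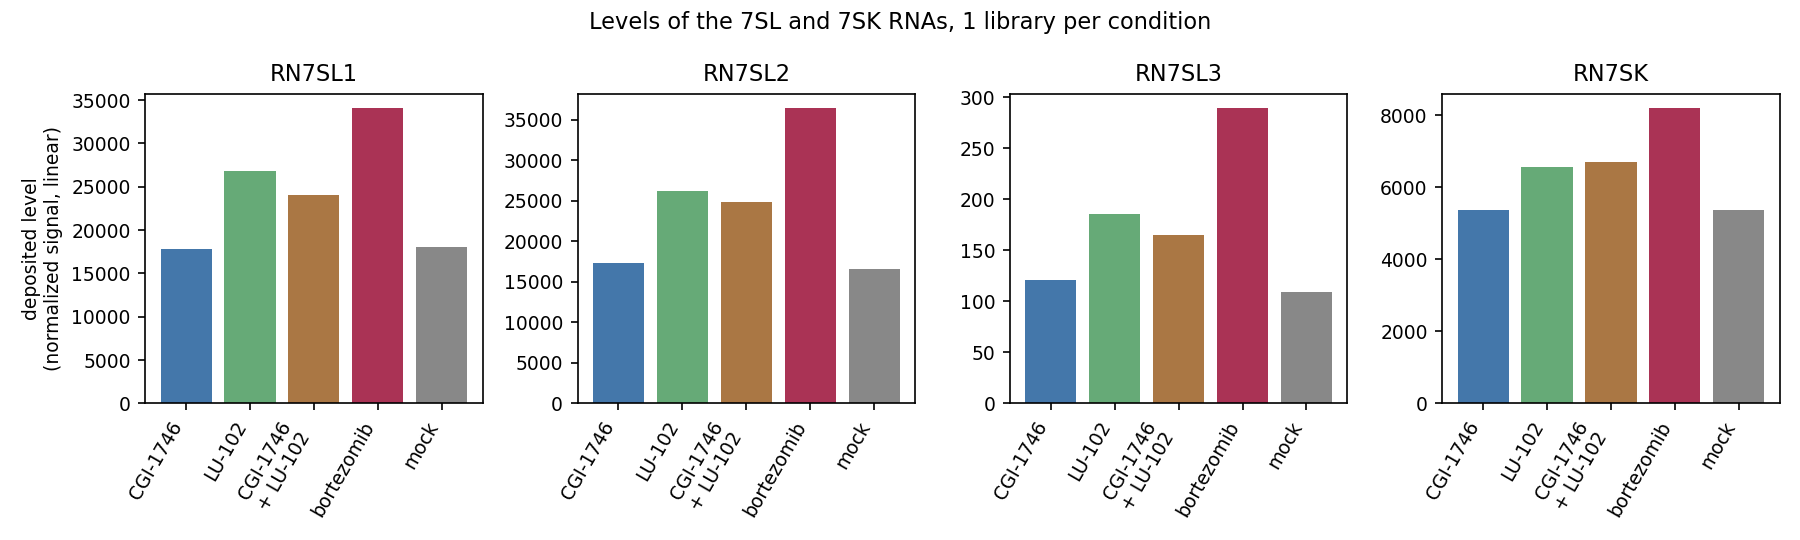
Deposited level (normalized signal, linear axis from 0) of RN7SL1, RN7SL2, RN7SL3 and RN7SK with CGI-1746, LU-102, the combination and bortezomib and in mock, 1 library per bar and an own axis per gene. The CGI-1746 and mock bars are alike, the LU-102 and combination bars are higher, and the bortezomib bars are highest, from 289 for RN7SL3 to 36441 for RN7SL2.

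The 4 genes made up 40.3% of the summed levels with CGI-1746, 47.4% under LU-102, 44.8% under the combination and 58.3% with bortezomib, against 40.4% in mock. Levels are per length, so short genes weigh heavily in these shares. Were the levels RPKM, a scale the files do not name, the 4 genes would have taken 1.23% of reads with CGI-1746, 1.81% under LU-102, 1.69% under the combination and 2.39% with bortezomib, against 1.22% in mock. The 7SL genes held 35.0% of the summed levels with CGI-1746, 42.2% under LU-102, 39.4% under the combination and 52.2% with bortezomib, against 35.0% in mock. The share of RN7SK varied less, at 5.34% with CGI-1746, 5.21% under LU-102, 5.39% under the combination and 6.05% with bortezomib, against 5.40% in mock. The summed level of the library exceeded that of mock by 26865 with LU-102, and 73.4% of this lay in the 4 genes. With the combination it exceeded mock by 25118, of which they held 62.3%. RPPH1 and RMRP, outside the 4 genes, were also higher in both libraries. RPPH1 was at 11783 with LU-102 and 8618 with the combination, against 7110 in mock. RMRP was at 11658 and 12369, against 8339. With bortezomib the 4 genes were 38885 above mock while the other 4198 genes together were lower, at 56526 against 59154 in mock. Levels are relative within a library, so more 7SL or 7SK RNA per cell and less of other RNA cannot be told apart.

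Differences were counted on log2(level + 1) where at least 1 of both libraries reached a level of 1, and a gene was counted at 2-fold or more. With CGI-1746 the 4 RNAs were close to mock. The 7SL sum was 1.01 times that of mock (counting interval at 95%, exact Clopper-Pearson, 1.01 to 1.02) and RN7SK 1.003 times (0.987 to 1.02). RN7SL1 was at 0.988 times (0.979 to 0.997), RN7SL2 at 1.04 (1.03 to 1.05) and RN7SL3 at 1.12 (0.993 to 1.25). None of the 4 was past 2-fold in either direction, beside 0.167% of 4186 genes, 0.119% higher and 0.0478% lower. As a share of summed levels the 7SL sum stood at log2 -0.00018, so its direction depends on the scaling. On the log2 scale the 4 genes stood between -0.02 and 0.16, within the central 95% of all genes, from -0.25 to 0.27.

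LU-102 went with higher 7SL. The 7SL sum was 1.53 times that of mock (1.52 to 1.54), with RN7SL1 at 1.48 (1.47 to 1.50), RN7SL2 at 1.58 (1.57 to 1.60) and RN7SL3 at 1.71 (1.54 to 1.90). RN7SK was at 1.23 (1.21 to 1.25). Again none was past 2-fold, beside 0.0715% of 4193 genes, all of them higher. RN7SL3 ranked 6, RN7SL2 11 and RN7SL1 21 from the top of all genes compared, and RN7SK ranked 104. Among 62 short RNA genes, those of under 600 bp and a noncoding RefSeq class, they ranked 6, 10, 14 and 29 in the same order, and the median of the 62 was 0.29 on the log2 scale, the value of RN7SK. Taken as a share of summed levels, RN7SK was at log2 -0.05 and the 7SL sum at 0.27, so the direction for RN7SK depends on the scaling.

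The combination gave values near those of LU-102. The 7SL sum was 1.41 times that of mock (1.40 to 1.42), with RN7SL1 at 1.33 (1.32 to 1.35), RN7SL2 at 1.50 (1.48 to 1.51) and RN7SL3 at 1.52 (1.36 to 1.70). RN7SK was at 1.25 (1.23 to 1.27). No member passed 2-fold, beside 0.215% of 4189 genes, 0.167% higher and 0.0477% lower. The central 95% of all genes ran from log2 -0.26 to 0.42, with RN7SL2 at 0.58 and RN7SL3 at 0.60 above it, and RN7SL1 at 0.42 and RN7SK at 0.32 within it. As a share of summed levels RN7SK was at -0.0018 and the 7SL sum at 0.17.

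Bortezomib had the highest ratios. Its library also differed as a whole, with 2231 genes at a level of 1 or more, against 4161 in mock. The others had 4170 with CGI-1746, 4171 under LU-102 and 4177 under the combination. The cause of this was not tested. The 7SL sum was 2.04 times that of mock (2.03 to 2.05), with RN7SL1 at 1.89 (1.87 to 1.90), RN7SL2 at 2.20 (2.18 to 2.21) and RN7SL3 at 2.66 (2.41 to 2.93). RN7SK was at 1.53 (1.51 to 1.55). RN7SL2 and RN7SL3, or 2 of the 4, were 2-fold or more higher, beside 1.38% of 4189 genes, and none was lower, beside 48.1% lower and 49.5% in either direction. This count depends on the scaling: as shares of summed levels RN7SL2 was at 0.69 and RN7SL3 at 0.96, so that 0 of the 4 passed, and with median-of-ratios scaling all 4 passed, RN7SL1 at 1.89 and RN7SK at 1.58. The median of all genes was -0.98 on the log2 scale, or -0.44 with median-of-ratios scaling, and relative to the deposited median the 7SL sum stood at 2.01 and RN7SK at 1.59. Short RNAs as a class were high in this library, with a median of 1.07 over 62 genes, among which RN7SL3 ranked 27, RN7SL2 31, RN7SL1 33 and RN7SK 36. As a share of summed levels the 7SL sum was at 0.58, under 2-fold, and RN7SK at 0.16.

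**Figure D3:**
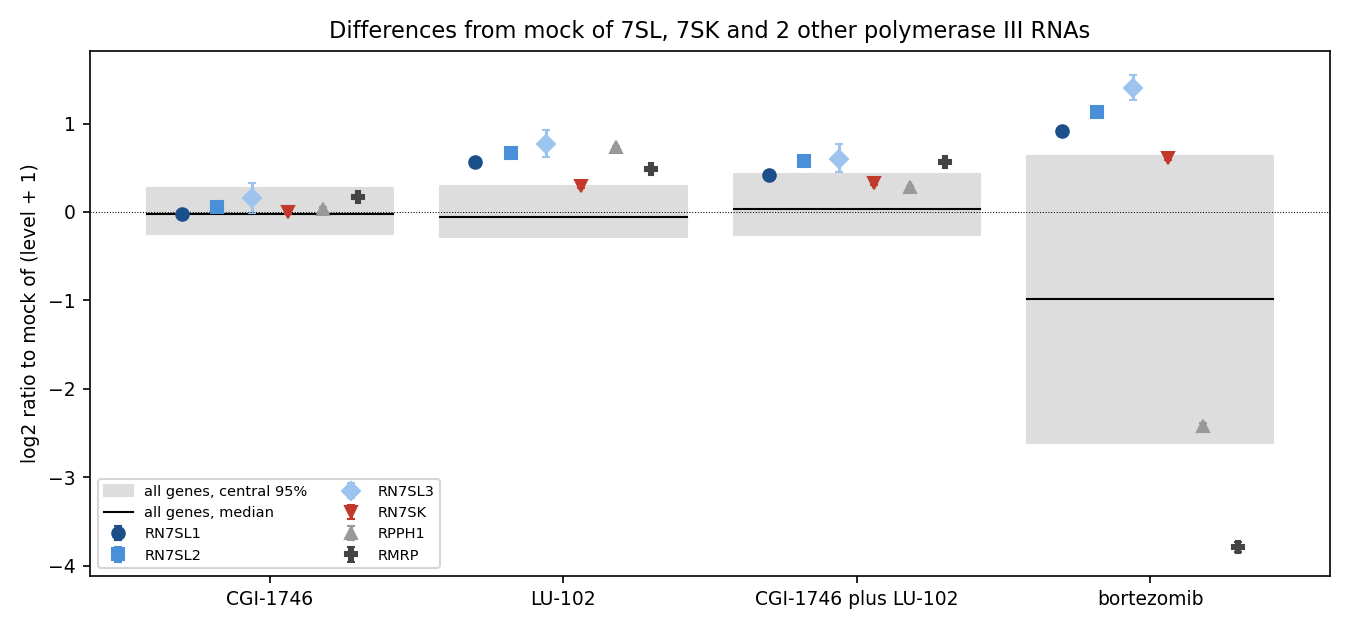
Log2 ratio to mock of (level + 1) for RN7SL1, RN7SL2, RN7SL3, RN7SK, RPPH1 and RMRP under each treatment, with 95% counting intervals, over the median (line) and central 95% (grey) of all genes compared. With LU-102 all 6 RNAs are above the all-gene median, and with bortezomib the 7SL and 7SK genes are above 0 (0.61 to 1.40) while RPPH1 is at -2.42 and RMRP at -3.79.

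Set against each single agent, the combination held 7SL at 1.39 times the level with CGI-1746 (1.38 to 1.40) and at 0.922 times the level with LU-102 (0.917 to 0.927). RN7SK was at 1.25 times the level with CGI-1746 (1.23 to 1.27) and at 1.02 times that with LU-102 (1.01 to 1.03). With median-of-ratios scaling this last value, 0.03 on the log2 scale, was -0.11. The combination departed from the sum of both single differences by log2 -0.14 for the 7SL sum and 0.02 for RN7SK, where all 4197 genes compared had a median of 0.10 and a central 95% from -0.25 to 0.40. RN7SL3 departed by -0.32, below that range. LU-102 had 0.752 times the 7SL level of bortezomib (0.748 to 0.756) and 0.803 times its RN7SK level (0.792 to 0.813). The combination had 0.693 times the 7SL level of bortezomib (0.689 to 0.696) and 0.819 times its RN7SK level (0.808 to 0.830).

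Ratios within a library do not depend on its scaling. 7SL stood at 6.55 times the level of 7SK with CGI-1746 (6.48 to 6.63), at 8.10 with LU-102 (8.01 to 8.18), at 7.31 with the combination (7.23 to 7.39) and at 8.64 with bortezomib (8.56 to 8.72), against 6.48 in mock (6.40 to 6.56). The intervals of CGI-1746 and mock overlap, and those of LU-102, the combination and bortezomib overlap no other. RN7SL2 took 49.3% of the reads of RN7SL1 and RN7SL2 with CGI-1746 (49.0% to 49.5%), 49.5% with LU-102 (49.4% to 49.7%), 50.8% with the combination (50.6% to 51.0%) and 51.7% with bortezomib (51.5% to 51.8%), against 47.9% in mock (47.7% to 48.2%). Mock was the lowest and bortezomib the highest, and of all pairs of libraries CGI-1746 and LU-102 overlap. All intervals of this paragraph cover counting error only, and they are narrow because the reads are many. Whether they overlap or not, they say nothing about variation between cultures. They also treat the divided reads as counted, and the error of the division itself is unknown. RN7SL3 made up 0.344% of the 7SL level with CGI-1746, 0.349% under LU-102, 0.337% under the combination and 0.409% with bortezomib, against 0.313% in mock.

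**Figure D4:**
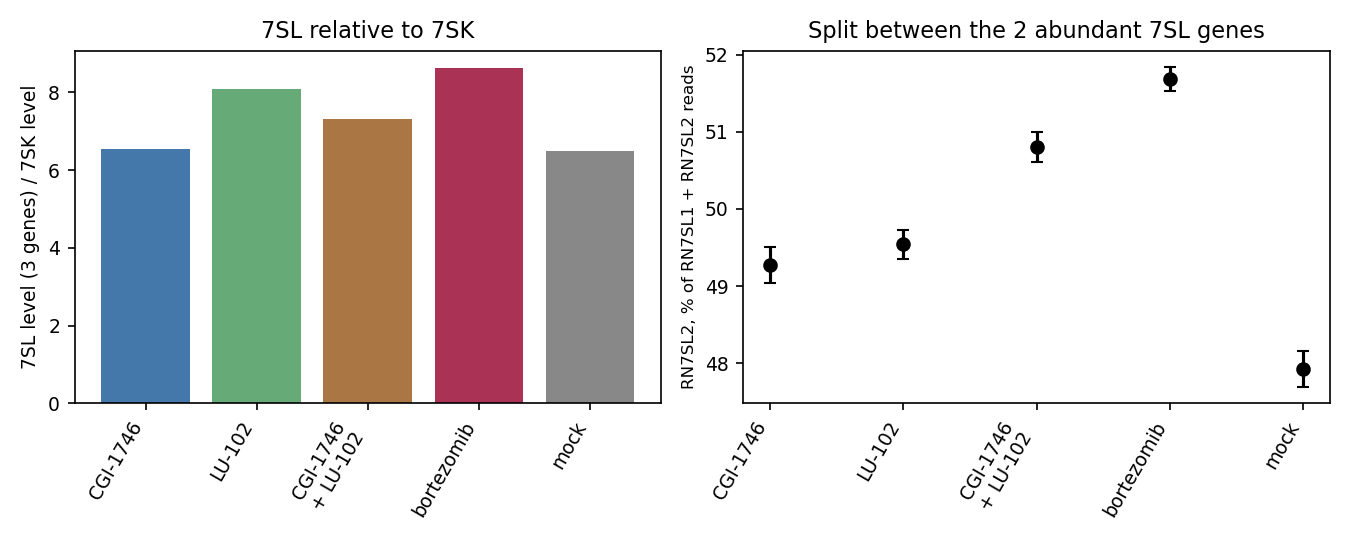
Left, level of the 3 7SL genes divided by that of RN7SK, and right, RN7SL2 as a percentage of the reads of RN7SL1 and RN7SL2 with 95% counting intervals, with CGI-1746, LU-102, the combination and bortezomib and in mock. The left ratio is 8.64 with bortezomib and 6.48 in mock, and the right share is 51.7% with bortezomib and 47.9% in mock. The right axis does not start at 0.

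The other abundant RNAs of polymerase III parted from 7SL and 7SK with bortezomib. RPPH1 had a level of 7265 with CGI-1746, 11783 under LU-102, 8618 under the combination and 1328 with bortezomib, against 7110 in mock. RMRP had 9343 with CGI-1746, 11658 under LU-102, 12369 under the combination and 603 with bortezomib, against 8339 in mock. With bortezomib RPPH1 was thus at 0.187 times mock (0.182 to 0.191) and RMRP at 0.0723 times (0.0696 to 0.0750), whereas RN7SK, RN7SL1, RN7SL2 and RN7SL3 were all above mock. With LU-102 both were higher than mock, RPPH1 at 1.66 times (1.64 to 1.68) and RMRP at 1.40 times (1.38 to 1.42), which bracket the 7SL sum at 1.53. With the combination RPPH1 was at 1.21 times (1.20 to 1.23) and RMRP at 1.48 times (1.46 to 1.50). RNY1, a Y RNA, rested on 15 reads with CGI-1746, 11 under LU-102, 12 under the combination and 16 with bortezomib, against 13 in mock, and its counting intervals all hold a ratio of 1. Of 18 other RNAs of this polymerase that were listed, 5 were measured, and with bortezomib 2 were 2-fold or more lower, beside 48.1% of all genes, and none higher, beside 1.38%.

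For comparison, the 3 measured of the listed snRNAs made by RNA polymerase II were higher with bortezomib by far more than 7SK. Small nucleolar RNAs were also high there, with a median of log2 1.79 and 29 of 34 above 0, beside an all-gene median of -0.98. RNU4-2, a U4 RNA, had a level of 142 with CGI-1746, 129 under LU-102, 131 under the combination and 2273 with bortezomib, against 122 in mock. RNU4-1 was at 16.9 times mock with bortezomib (14.8 to 19.3) and RNU12, of the minor spliceosome, at 58.9 times (22.9 to 219) on 261.74 against 4.03 reads. On log2(level + 1) all 3 measured of 18 listed were 2-fold or more higher there, beside 1.38% of all genes, and none was with the other treatments, although the plain ratio of RNU12 with CGI-1746 was 2.48 (0.714 to 10.8) on 10.07 against 4.03 reads.

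The messenger RNAs of the protein partners of 7SL stood between log2 -0.33 and 0.03 with CGI-1746, LU-102 and the combination, and between -1.60 and -0.98 with bortezomib. Of 6 proteins of the signal recognition particle 4 were measured, and their median was log2 -0.01 with CGI-1746, -0.16 under LU-102 and -0.04 with the combination, beside all-gene medians of -0.02, -0.06 and 0.03. With bortezomib it was -1.41 beside -0.98 (-0.84 beside -0.44 with median-of-ratios scaling), and 3 of the 4 were 2-fold or more lower, beside 48.1% of all genes. SRP9 of the Alu domain had a level of 7.07 with CGI-1746, 6.69 under LU-102, 7.51 under the combination and 2.44 with bortezomib, against 8.64 in mock. SRP14, its partner there, had 4.91 with CGI-1746, 5.18 under LU-102, 5.21 under the combination and 2.08 with bortezomib, against 5.07 in mock. SRP72 and SRP68 of the S domain stood at -1.60 and -1.33 with bortezomib, and between -0.19 and 0.03 otherwise.

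Downstream of the particle, 11 of 14 genes of its receptor and the translocon were measured. With bortezomib 9 of them were 2-fold or more lower, beside 48.1% of all genes, and none higher, beside 1.38%. Their median was -1.32 beside -0.98 for all genes, or -0.79 beside -0.44 with median-of-ratios scaling, and with the other treatments none passed 2-fold. SRPRA, the receptor subunit that docks the particle, was at -2.48, SEC61A1, the channel subunit, at -1.87, SSR2 and SSR3, of the translocon-associated complex, at -1.86 and -1.03, and TRAM2 at -1.83. Of 5 signal peptidase subunits 2 were measured: SPCS1 stood at -1.48 and SPCS3 at -0.85 with bortezomib, and both between -0.40 and -0.15 with the other treatments.

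The 7SK particle and P-TEFb gave 6 measured genes of 12. Their median was -0.07 with CGI-1746, -0.12 under LU-102, -0.07 under the combination and -0.96 with bortezomib. With bortezomib 3 were 2-fold or more lower, and this share, beside 48.1% of all genes, and the median, beside -0.98, were close to those of all genes. The count depends on the pseudocount, since adding 1 draws low levels toward a ratio of 1. CCNT1 went from 1.94 in mock to 0.615 with bortezomib and ELL2 from 1.56 to 0.445, yet neither passed 2-fold on log2(level + 1). Among genes of this list with a level of at least 5 the median was -1.06. HEXIM1, the inhibitor that 7SK presents to P-TEFb, had 19.8 with CGI-1746, 18.5 under LU-102, 20.6 under the combination and 16.8 with bortezomib, against 20.3 in mock. At log2 -0.26 it was the least lowered of the 6 with bortezomib. MEPCE, which caps 7SK, was at -1.06, CDK9, the kinase of P-TEFb, at -1.22, and AFF4, a scaffold of the super elongation complex, at -1.36.

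Genes of the RNA polymerase III machinery also had medians below 0 with bortezomib. Over all measured subunit genes the median was nearer to 0 than the all-gene median. Among subunit genes with a level of at least 5 it was -1.29, so its place depends on the level minimum. The all-gene median at that minimum is not given here. Of 18 subunit genes 9 were measured, several of them shared with other polymerases, their medians being -0.09 with CGI-1746, 0.01 under LU-102, 0.07 under the combination and -0.68 with bortezomib, where 2 were 2-fold or more lower, beside 48.1% of all genes and an all-gene median of -0.98. These were POLR2K at -1.97 and POLR2E at -1.29, while POLR2L was at -0.59. Adding 1 draws the ratios of genes at low levels toward 0. POLR3C went from 1.28 in mock to 0.426 with bortezomib, POLR3D from 2.93 to 1.30 and POLR3K from 1.25 to 0.515. Each was 2-fold or more lower by plain ratio but not on log2(level + 1), so the count of 2 depends on the pseudocount. Of 20 factors 5 were measured, with a median of -1.18 and 3 past 2-fold lower with bortezomib, beside -0.98 and 48.1% for all genes, or a median of -0.50 beside -0.44 with median-of-ratios scaling, and none past 2-fold with the other treatments. MAF1, the repressor of this polymerase, was at -1.32, GTF3A and GTF3C4, which serve genes with internal promoters, at -1.23 and -1.18, and SNAPC2, of the complex that serves snRNA-type promoters such as that of 7SK, at -0.73. SNAPC2 was the highest of the 5 with every treatment, at 0.36 with CGI-1746, 0.22 under LU-102 and 0.46 under the combination.

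**Figure D5:**
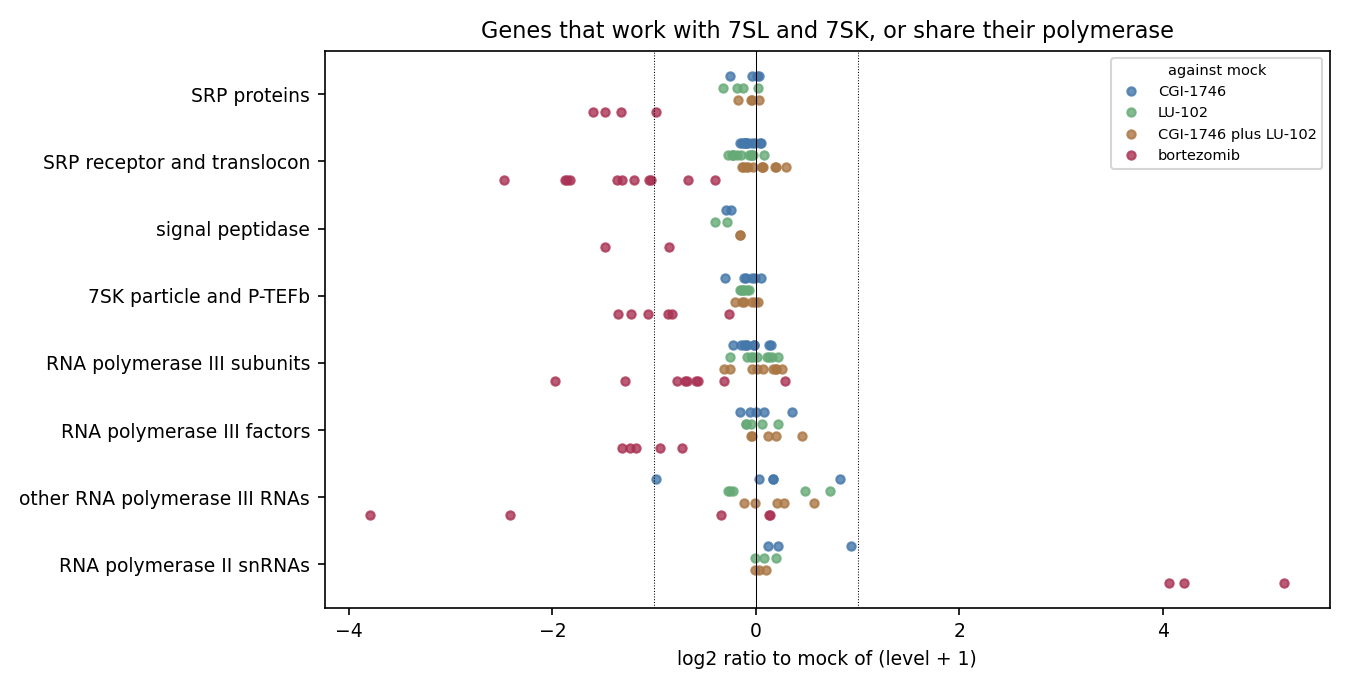
Log2 ratio to mock of (level + 1) for every measured gene of the 8 lists (points), by treatment (colour), with dotted lines at 2-fold. Points of CGI-1746, LU-102 and the combination lie within 2-fold, whereas with bortezomib the protein-coding lists lie mostly below 0, RMRP is farthest left, at -3.79, and 3 RNA polymerase II snRNAs are above 4.

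Likeness of pattern was measured as the root mean square difference of the 4 log2 ratios to mock, among 1186 genes with a mean level of at least 5. RN7SL1 and RN7SL2 were each nearest to the other, at 0.15. SNORA73A, a small nucleolar RNA, came next but one for RN7SL1 at 0.16 and for RN7SL2 at 0.17. DPM3, a subunit of dolichol-phosphate mannose synthase, stood between RN7SL2 and SNORA73A for RN7SL1 at 0.15 and next to RNASEK for RN7SK at 0.14. RN7SL3 was nearest to RN7SL2 at 0.15 and then to CCDC85B at 0.16. RN7SK was nearest to RNASEK, at 0.10, followed by DPM3, H3-5 at 0.15 and CLDN4 at 0.16. RN7SK itself stood at 0.21 from RN7SL1. The treatments share the mock library, so all these ratios move together with it.

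In the authors' deposited table RN7SK had a p-value of 0.88 with CGI-1746 against mock, and RN7SL2 one of 0.000128 with an adjusted value of 0.134. The authors' deposited table gives RN7SK adjusted values of 1.06e-25 under LU-102, 1.93e-31 under the combination and 6.18e-126 with bortezomib, each against mock. For RN7SL3 the authors' deposited table has 0.00649 under LU-102, 0.156 under the combination and 3.09e-16 with bortezomib. Adjusted values of at most 0.05 were given there to 0.0714% of genes with CGI-1746, 0.167% under LU-102, 0.333% under the combination and 5.69% with bortezomib. These p-values match, to within 2.6e-05, a Poisson test that takes 1 unit of level as 1 count, whereas 1 unit of level in mock was 5.04 reads for the 7SL genes and 5.59 for RN7SK. They rest on 1 library per condition and cover no variation between cultures.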

How the data were processed

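The 5 libraries of total RNA from MDA-MB-231 cells had paired 150 bp reads, per the labels. The submitters' processing notes name Partek and hg38. Which aligner, annotation, filter, strand setting and normalization they used is not given in the sources used here. Per the file headers, the deposited signal is a least squares mean for each gene and library, and 7 columns that repeat a library were identical and not used. The ratio, fold change score and p-value columns were deposited by the authors.

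Levels were compared on log2(level + 1). The step per read was found, in each library, as the value that made level times RefSeq length of 31 of 34 small nucleolar RNAs a multiple of 0.5 reads, within 0.01. It was 58.8 with CGI-1746, 58.5 under LU-102, 58.8 under the combination and 53.8 with bortezomib, against 59.4 in mock. If levels are RPKM, this is 16800000 to 18600000 reads per library, the most with bortezomib. Reads without molecular identifiers are not independent molecules. Symbols of 4126 genes matched RefSeq on GRCh38.p14, and promoters of the members were not analysed here. The sequences of the 7SL genes are not reported here.

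Named are the 4 members, the 3 genes of each list with the highest level in mock, up to 4 past 2-fold, and the nearest genes by pattern. Also named are RNA45SN3, for its high level, and RPS29, LRR1, ARF6 and CILK1, for their place near the members. NEMF and GSTA4 were looked up as neighbours too but were not measured. POLR3C, POLR3D, POLR3K, CCNT1 and ELL2 were named after their values were seen. The members and lists were chosen with earlier results of these data known, and short RNAs as a class after values were seen. Functions were tested on simulated data. Tools were Python 3.11.15 and its packages scipy 1.17.1, numpy 2.4.6, matplotlib 3.10.9 and pandas 2.3.3. Alternatives were another pseudocount, level minimums and 4 scalings.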

Additional observations from a re-analysis of the deposited data

How the results depend on the processing

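No paired analysis was possible because each condition has 1 library, and for the same reason none could be left out. The pseudocount of 5 moved no log2 ratio of the 7SL sum or RN7SK beyond its counting interval. The values below are log2 ratios in the order CGI-1746, LU-102, combination and bortezomib over mock, then the combination over CGI-1746 and over LU-102, then LU-102 and the combination over bortezomib. With median-of-ratios scaling the 7SL sum had 0.057, 0.65, 0.39, 1.995, 0.34, -0.26, -1.35 and -1.60, and RN7SK 0.041, 0.33, 0.22, 1.58, 0.18, -0.11, -1.25 and -1.36. Less the all-gene median, the 7SL sum had 0.038, 0.67, 0.46, 2.01, 0.43, -0.20, -1.33 and -1.52, and RN7SK, from LU-102 on, 0.35, 0.29, 1.59, 0.28, -0.056, -1.23 and -1.28. As shares of summed levels the 7SL sum had -0.00018, 0.27, 0.17, 0.58, 0.17, -0.098, -0.31 and -0.41. RN7SK had -0.051 with LU-102, -0.0018 with the combination, 0.16 with bortezomib, 0.015 for the combination over CGI-1746, and -0.21 and -0.16 for LU-102 and the combination over bortezomib. With RMRP and the 4 45S ribosomal RNA genes left out of the sum, the 7SL sum had, from LU-102 on, 0.27, 0.20, 0.79, 0.18, -0.076, -0.51 and -0.59, and RN7SK -0.046, 0.025, 0.37, 0.027, 0.071, -0.42 and -0.35. These shifts follow from the construction of each scaling.

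Counts of all genes past 2-fold also moved. With CGI-1746 5 higher became 3 with a level of at least 5 and 1 with a pseudocount of 5, and 2 lower became 0 with that pseudocount and 1 with median-of-ratios scaling. With LU-102 3 higher became 1 with a level of at least 5 and 0 with a pseudocount of 5. With the combination 7 higher became 3 with a pseudocount of 5, and 2 lower became 1 with a level of at least 5, 0 with a pseudocount of 5 and 1 with median-of-ratios scaling. With bortezomib 58 higher became 208 with median-of-ratios scaling, and 2015 lower became 966 with a level of at least 5, 486 with a pseudocount of 5 and 727 with median-of-ratios scaling. Apart from the fewer genes compared at the higher level minimum, the causes were not tested. Depth limits RNU12, with 4.03 reads in mock, RNY1, with 13 there, and, of the 7SL and 7SK genes, RN7SL3, with 548 to 1609 reads.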

Other observations

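Genes near the 7SL and 7SK genes had their own values. RPS29, whose span holds RN7SL1, had a level of 0.915 with CGI-1746, 1.13 under LU-102, 1.29 under the combination and 0.912 with bortezomib, against 0.893 in mock. LRR1, also near RN7SL1, had 1.94 with CGI-1746, 1.84 under LU-102, 2.14 under the combination and 0.475 with bortezomib, against 1.96 in mock. ARF6, a small GTPase gene near RN7SL2, had 48.0 with CGI-1746, 46.8 under LU-102, 49.1 under the combination and 18.7 with bortezomib, against 55.8 in mock. CILK1, a kinase gene near RN7SK, was at log2 -1.26 with bortezomib and between -0.19 and -0.10 otherwise. None of these 4 was above mock with bortezomib by more than 0.02 on the log2 scale, where RN7SL1, RN7SL2, RN7SL3 and RN7SK stood between 0.61 and 1.40. RPS29 was under the level minimum of 1 in both libraries, so it was not among the genes compared there. LRR1 and CILK1 were also low, at 1.96 and 2.44 in mock, so these neighbours are a weak comparison.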
